A study of Mus musculus with 50 samples.

Results

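A fatty acid that enters a liver cell cannot be oxidised, stored or elongated until it is joined to coenzyme A. The enzymes of this step are the acyl-CoA synthetases. The Acsl genes encode those for long-chain fatty acids, the Acss genes those for acetate and other short-chain acids, and the Slc27a genes the fatty acid transport proteins, which take up fatty acids and, for several members, activate them as well. In rodent liver many genes of fatty acid handling are targets of PPARalpha, a nuclear receptor that binds fatty acids and that perfluorinated acids are known to activate. The group described here was a list of 10 named genes: Acsl1, Acsl3, Acsl4, Acsl5, Acss1, Acss2, Acss3, Slc27a1, Slc27a2 and Slc27a4. Of these, 9 were measured among 30744 features tested. Acsl1 was not analysed here, because no probe was annotated to it. The probe of Acsl3 carried the name of Utp14b as well, so its values cannot be assigned to either gene, and it is called the Acsl3/Utp14b cluster. Acsl5 had 2 probes with mean signals of 11.13 and 5.88 on the log2 scale, and the brighter was used.

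Expression was measured on 50 Affymetrix whole-transcript arrays of liver RNA from pregnant CD-1 mice and from their fetuses at gestational day 17.5. CD-1 is an outbred strain, and the fetal livers were labelled female. The dams had received 1 of 5 daily oral doses from embryonic day 1.5 to 17.5, and the fetuses were exposed only through the dam: PFOA (perfluorooctanoic acid) at 1 or 5 mg/kg, GenX (hexafluoropropylene oxide dimer acid, a branched ether where PFOA is a straight chain) at 2 or 10 mg/kg, or vehicle. The groups are called fetal or maternal PFOA1, PFOA5, GenX2 and GenX10, and control. Each had 5 arrays, except fetal PFOA5 with 6 and fetal GenX10 with 4. The labels describe matched dams and fetuses but name no pairs, so the p-values treat the arrays as independent. Doses of the compounds were not matched, and values for PFOA and GenX are given side by side with no test between them.

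All signals below are the deposited log2 values, and differences are log2 units ± standard error with the first-named group minus the second. A difference was called at a limma adjusted p under 0.05 over all 30744 features. A probe at or below the 95th percentile of the 5222 negative controls of its array counted as not above background. That limit lay between 7.38 and 8.18. Where every array of the lower group was at or below it, the fold is given as "at least", which takes each such array at the lowest signal above background. Levels are not compared between probes. In bulk liver, fewer cells of a type and less RNA per cell cannot be told apart.

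Some arrays stood apart. In maternal PFOA1, replicate 1 had an Ehhadh signal of 10.54, within the control range of 10.36 to 10.59, whereas the other 4 arrays lay between 11.94 and 12.36. Ehhadh encodes a peroxisomal enzyme of fatty acid oxidation and a standard target of PPARalpha. Replicate 3 of the fetal controls and replicate 2 of fetal GenX2 had low Xist (5.39 and 4.50) and high Eif2s3y (6.49 and 6.10), against the labelled sex. The source names of fetal PFOA5 replicate 6 and fetal GenX2 replicate 5 gave another group than their titles, and the titles were followed. Leaving out both arrays that went against the labelled sex ended no member call and brought 1 past the threshold, named with the tissue differences.

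Against controls, the measured members rose and none fell. In fetal liver 5 of the 9 rose under PFOA1, where 0.956% of all features were called, and 5 under PFOA5, where 3.4% were. Under fetal GenX2 and GenX10, 6 of 9 rose, against 6.74% and 9.28% of all features called. In maternal liver none of 9 was called under PFOA1, where 0.0325% of all features were. By limma, 3 of the 9 had an unadjusted p under 0.05 there, as did 1533 of all 30744 features. Under maternal PFOA5, GenX2 and GenX10 the counts were 6, 6 and 8 of 9, with 19.9%, 3.37% and 13.8% of all features called. The median difference of the 9 was 0.45, 0.77, 0.80 and 0.83 in fetal PFOA1, PFOA5, GenX2 and GenX10, and 0.18, 0.71, 0.57 and 0.93 in the matching maternal groups. Over all features the median lay between -0.06 and 0.02 in these 8 comparisons.

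**Figure D1:**
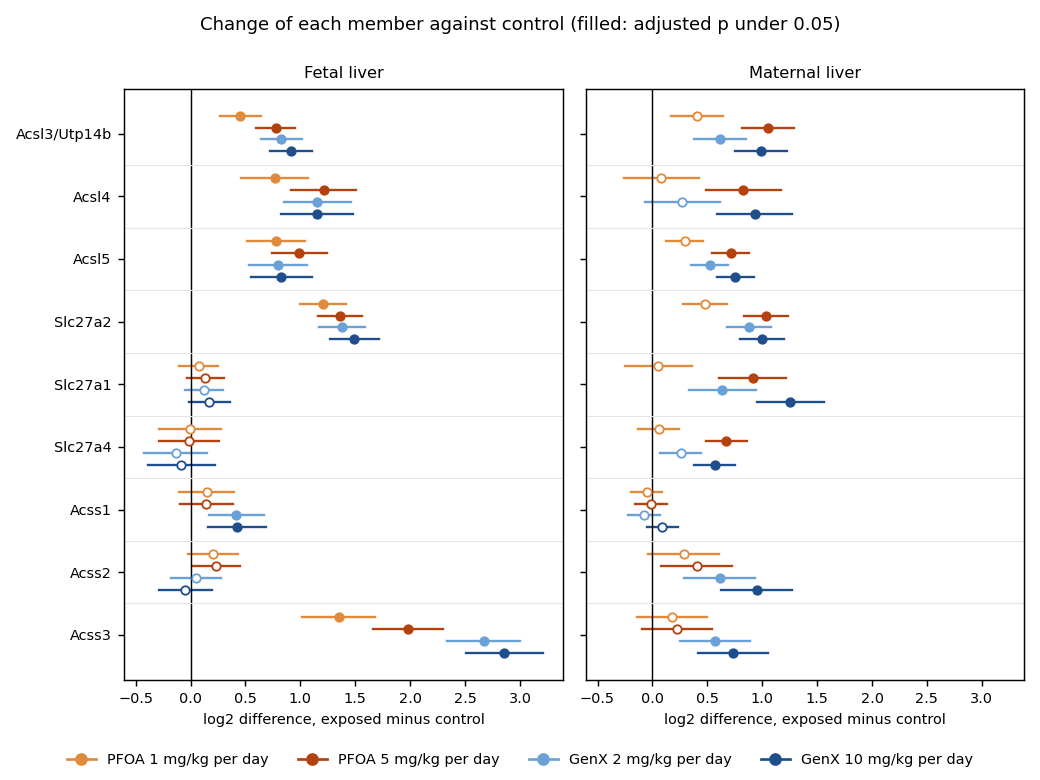
Log2 difference of each measured member between exposed and control livers (x axis, log2 units; points are limma estimates, bars 95% confidence intervals, filled points adjusted p under 0.05), fetal liver on the left and maternal liver on the right. Slc27a2, Acsl5 and the Acsl3/Utp14b cluster were called in 7 of 8 exposures each, Slc27a1 and Slc27a4 in maternal but not fetal groups, and fetal Acss3 lies at 1.35 to 2.86, against controls that were not above background.

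Slc27a2 (chromosome 2, 126553024 to 126588243, GRCm38) encodes FATP2, a transport protein of liver that also activates very long-chain fatty acids. It rose in every exposure except maternal PFOA1. In fetal liver the signals were 11.43, 11.17, 11.39, 11.32 and 11.55 under PFOA1, against 10.06, 10.38, 10.38, 10.11 and 9.90 in controls. Under fetal PFOA5 they ran from 11.22 over a median of 11.56 to 11.80. No exposed fetal array came near the controls. Fetal GenX2 arrays had 11.56, 11.44, 11.60, 11.41 and 11.70, and fetal GenX10 arrays 11.72, 11.75, 11.50 and 11.65. The fetal differences were 1.21 ± 0.10 (2.31-fold, adjusted p = 2.4e-08), 1.36 ± 0.10 (2.57-fold, adjusted p = 7.2e-10), 1.38 ± 0.10 (2.59-fold, adjusted p = 1.3e-09) and 1.49 ± 0.11 (2.81-fold, adjusted p = 8.4e-10) in the order PFOA1, PFOA5, GenX2, GenX10.

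In maternal liver, Slc27a2 had signals of 11.94, 11.84, 11.95, 11.94 and 11.86 under PFOA5, against 10.75, 10.93, 10.86, 10.98 and 10.85 in controls. The difference was 1.03 ± 0.10 (2.04-fold, adjusted p = 5e-08). Maternal GenX2 (11.97, 11.84, 11.78, 11.46 and 11.72) differed from control by 0.88 ± 0.10, and GenX10 (12.07, 11.69, 11.85, 11.89 and 11.85) by 1.00 ± 0.10 (adjusted p = 4.8e-06 and 1.2e-07). These groups did not overlap the controls. Maternal PFOA1 arrays had 10.94, 11.37, 11.42, 11.39 and 11.63. Replicate 1, the array with control-level Ehhadh, was the one inside the control range, and the difference of 0.48 ± 0.10 was not called (adjusted p = 0.098). Without that array the difference was 0.58 and was called.

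The promoter windows of Slc27a2 and Acsl5, which rose in both livers, and of Acss2, called in maternal liver alone, are shown. Acss2 was chosen because it moved in another set of livers than Slc27a2 and Acsl5. Each window holds 300 bases, 250 before the transcription start and 50 after it, from RefSeq (GRCm38.p6), 5′ to 3′ on the gene's strand. They lie at chr2:126552774-126553073 (plus strand), chr19:55253119-55253418 (plus strand) and chr2:155517793-155518092 (plus strand). Capitals mark the single half-site AGGTCA, read here as its reverse complement, TGACCT.
Slc27a2: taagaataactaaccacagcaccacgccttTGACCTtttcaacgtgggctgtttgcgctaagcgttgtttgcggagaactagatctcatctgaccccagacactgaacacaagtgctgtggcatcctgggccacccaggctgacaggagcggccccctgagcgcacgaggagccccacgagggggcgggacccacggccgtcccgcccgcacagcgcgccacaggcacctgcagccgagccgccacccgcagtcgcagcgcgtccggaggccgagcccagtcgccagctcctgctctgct
Acsl5: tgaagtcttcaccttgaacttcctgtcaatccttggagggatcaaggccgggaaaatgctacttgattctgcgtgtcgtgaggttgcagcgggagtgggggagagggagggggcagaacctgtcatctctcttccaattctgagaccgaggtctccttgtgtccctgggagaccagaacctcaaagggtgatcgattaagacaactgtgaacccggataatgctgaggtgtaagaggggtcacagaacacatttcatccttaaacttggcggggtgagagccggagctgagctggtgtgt
Acss2: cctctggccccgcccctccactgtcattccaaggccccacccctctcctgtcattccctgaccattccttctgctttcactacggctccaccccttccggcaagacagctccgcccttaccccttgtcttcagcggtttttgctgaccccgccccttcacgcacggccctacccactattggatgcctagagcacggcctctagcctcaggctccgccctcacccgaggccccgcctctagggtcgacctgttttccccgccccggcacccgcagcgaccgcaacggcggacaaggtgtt

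Across 12 such windows of 9 listed genes (Acss3 had none), both strands were searched for 3 motifs. The letters of a PPAR-type element, 2 copies of AGGTCA separated by 1 base with up to 2 mismatches, were in none of the 12 windows and in 3.86% of all 32851 windows. A single AGGTCA, searched with no mismatch, was in the Slc27a2 window alone, 220 bases before the start on the minus strand, and in 16.3% of all windows. TCACNCCAC, a sterol element, was in 1 window of Acsl1 and in 1.24% of all windows. These matches describe the letters of short windows, and say nothing of binding.

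Acsl5 (chromosome 19, 55251861 to 55296628), a long-chain synthetase of liver and intestine, rose in the same 7 exposures as Slc27a2. Fetal PFOA1 arrays had 11.05, 10.39, 11.00, 10.83 and 11.09, against 9.70, 10.04, 10.12, 10.37 and 10.24 in fetal controls. Fetal PFOA5 arrays lay between 10.80 and 11.27 with a median of 11.15. All fetal exposed arrays were above all controls, although PFOA1 replicate 2 exceeded the highest control only slightly. The fetal differences were 0.78 ± 0.13 under PFOA1 and 0.99 ± 0.12 under PFOA5 (1.71-fold and 1.99-fold). Under GenX2 and GenX10 they were 0.80 ± 0.13 and 0.83 ± 0.13. Their adjusted p values lay between 6e-06 and 0.00077. The dimmer Acsl5 probe was below background on every array (at most 6.46), so averaging it in shrinks a difference. With the mean of both probes, the fetal differences were 0.40, 0.48, 0.36 and 0.49 in the order PFOA1, PFOA5, GenX2, GenX10. That of PFOA1 was then not called (adjusted p = 0.062).

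Maternal Acsl5 signals were 11.81, 11.73, 11.66, 11.79 and 11.70 under PFOA5, against 10.90, 11.25, 11.05, 10.91 and 11.01 in controls. That difference was 0.71 ± 0.08 (1.64-fold, adjusted p = 8.3e-07). Maternal GenX2 and GenX10 differed from control by 0.52 ± 0.08 and 0.76 ± 0.08 (adjusted p = 0.00029 and 5.2e-07). The GenX2 group overlapped the controls by a single array, replicate 4 at 11.22. With the mean of both probes the PFOA5, GenX2 and GenX10 differences of Acsl5 were each 0.36 and still called. Under maternal PFOA1 the difference of 0.30 ± 0.08 was not called (adjusted p = 0.39).

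Acsl4 (chromosome X, 142317993 to 142390802) encodes a synthetase with a preference for arachidonic acid and other polyunsaturated fatty acids. Its fetal signals were 9.20, 8.36, 9.25, 8.89 and 8.73 under PFOA1, against 8.20, 8.23, 8.40, 8.02 and 7.74 in controls. PFOA1 replicate 2 fell within the control range and the other 4 arrays lay above it. Fetal PFOA5 arrays ran from 9.14 over 9.37 (median) to 9.48. The fetal differences were 0.77 ± 0.15, 1.21 ± 0.14, 1.15 ± 0.15 and 1.15 ± 0.16 for PFOA1, PFOA5, GenX2 and GenX10. The last 3 amounted to 2.32, 2.22 and 2.22 times control, with every exposed array above every control. The PFOA1 call (adjusted p = 0.0056) was lost, at an adjusted p of 0.058, when only those groups entered the fit.

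In maternal liver Acsl4 was called under PFOA5 and GenX10. PFOA5 arrays had 9.69, 9.65, 9.58, 9.88 and 9.65, and controls 8.91, 9.34, 8.82, 8.45 and 8.78. The difference was 0.83 ± 0.17 (1.77-fold, adjusted p = 0.00087). GenX10 arrays (10.12, 9.50, 9.89, 9.64 and 9.80) were likewise all above the controls, by 0.93 ± 0.17 (1.91-fold, adjusted p = 0.00041). The spread was wider under maternal GenX2 (8.60, 9.30, 9.31, 8.80 and 9.67), where the difference of 0.27 ± 0.17 was not called (adjusted p = 0.42).

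The Acsl3/Utp14b cluster was not above background on any control array of either tissue. Acsl3, 1 of its annotated genes (chromosome 1, 78657825 to 78707743), encodes a synthetase of the endoplasmic reticulum and lipid droplets. Fetal signals were 8.29, 7.87, 8.21, 8.19 and 7.99 under PFOA1 and 8.48, 8.49, 8.50, 8.45 and 8.51 under GenX2, against 7.50, 7.72, 7.65, 7.79 and 7.64 in controls. The GenX2 arrays lay close together, between 8.45 and 8.51. Fetal differences were 0.45 ± 0.09, 0.77 ± 0.09, 0.83 ± 0.09 and 0.91 ± 0.09 for PFOA1, PFOA5, GenX2 and GenX10, at least 1.16, 1.45, 1.51 and 1.60 times control. Maternal differences were 1.05 ± 0.11 under PFOA5, 0.62 ± 0.11 under GenX2 and 0.99 ± 0.11 under GenX10, at least 1.74, 1.29 and 1.66 times control. All 7 were called, with no overlap with controls, and the maternal PFOA1 difference of 0.40 ± 0.11 was not (adjusted p = 0.45).

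**Figure D2:**
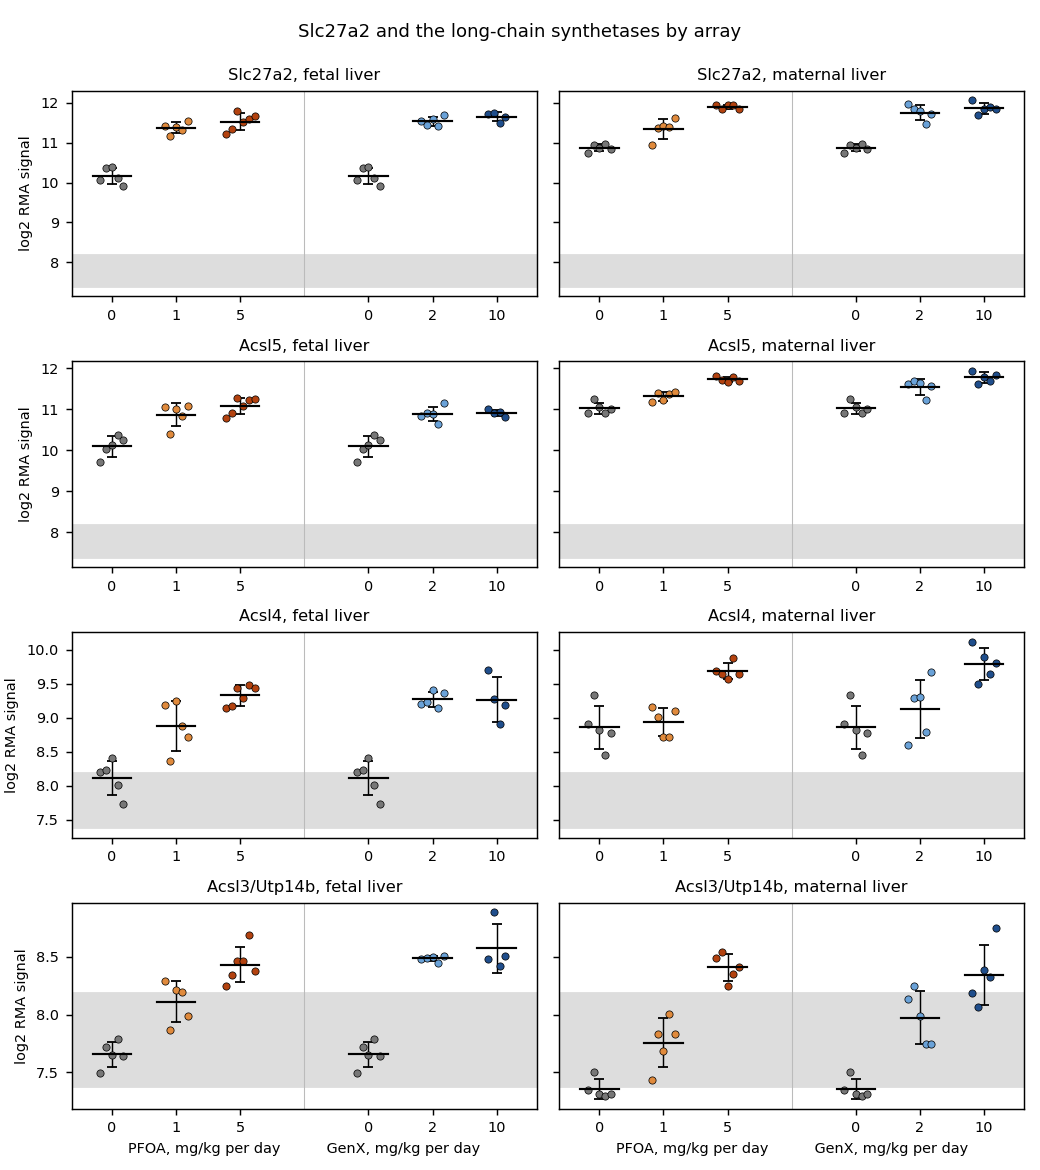
Log2 RMA signal (y axis) of Slc27a2, Acsl5, Acsl4 and the Acsl3/Utp14b cluster on each array by daily dose (x axis; PFOA 0, 1 and 5, GenX 0, 2 and 10 mg/kg, with the same control arrays drawn at both zeros), fetal liver left and maternal liver right. Points are arrays, lines the mean, bars 1 SD and the grey band the range of background limits. Fetal Slc27a2 lies between 11.17 and 11.80 in all exposed arrays and at or below 10.38 in controls.

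Slc27a1 and Slc27a4 rose in maternal liver, and neither was above background on any fetal array. The difference between the tissues itself passed the test under PFOA5 and GenX10 for both genes. Slc27a1 (FATP1; chromosome 8, 71568728 to 71587307) is the transport protein best known from muscle and fat. Its maternal signals were 9.25, 8.39, 8.13, 8.60 and 8.44 under GenX10, against 7.26, 7.24, 7.35, 7.39 and 7.31 in controls, none of which was above background. Every GenX10 array was above every control, by 1.26 ± 0.15 on average (at least 1.93-fold, adjusted p = 1.8e-06). Maternal PFOA5 arrays had 8.21, 7.95, 8.25, 8.37 and 8.31 and differed by 0.91 ± 0.15 (at least 1.52-fold, adjusted p = 8.5e-05). Under GenX2 (8.31, 7.70, 8.01, 8.13 and 7.55) the difference was 0.63 ± 0.15 (at least 1.26-fold, adjusted p = 0.014), and leaving out replicate 1 of that group raised the adjusted p to 0.057. Under PFOA1 it was 0.06 ± 0.15, with 4 of 5 arrays not above background. Fetal differences lay between 0.07 and 0.17, and none was called.

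Slc27a4 (FATP4; chromosome 2, 29802634 to 29817522), a transport protein of the endoplasmic reticulum that is prominent in intestine and skin, had maternal signals of 8.44, 8.47, 8.12, 8.49 and 8.41 under PFOA5. Controls had 7.82, 7.72, 7.65, 7.81 and 7.56, so the groups did not overlap, and the difference was 0.67 ± 0.09 (1.59-fold, adjusted p = 7.5e-06). Under maternal GenX10 (8.45, 8.31, 7.91, 8.19 and 8.53) it was 0.57 ± 0.09 (1.48-fold, adjusted p = 0.00011). Maternal GenX2 arrays (8.12, 7.91, 8.03, 7.91 and 7.89) were also all above the controls, but the difference of 0.26 ± 0.09 was not called (adjusted p = 0.13). Under PFOA1 the difference was 0.06 ± 0.09. Fetal differences lay between -0.14 and 0.00, with every fetal array not above background.

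**Figure D3:**
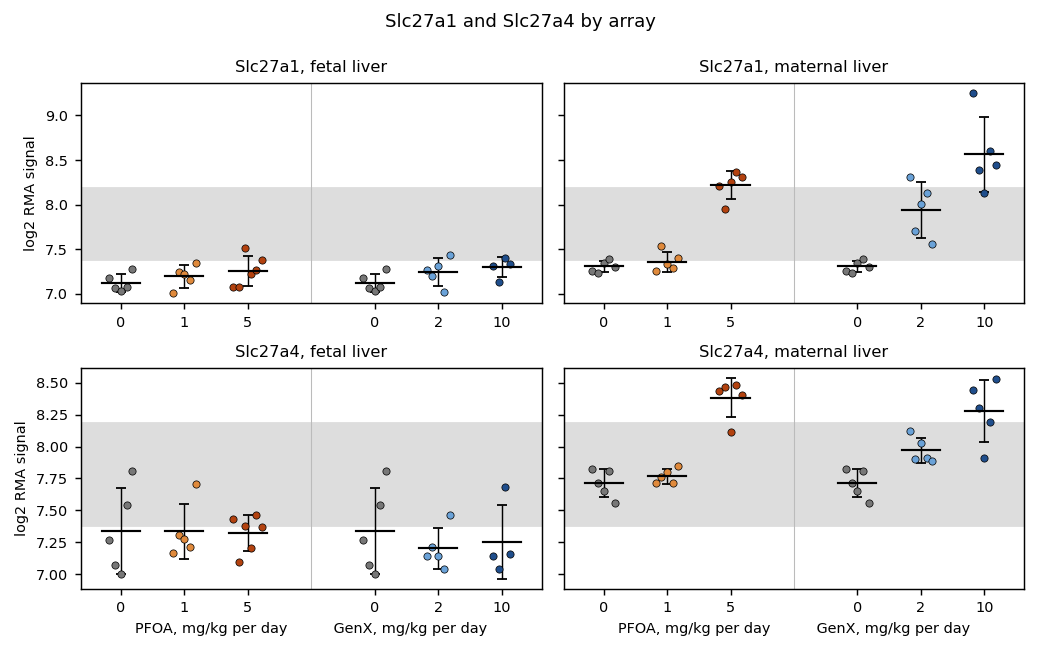
Log2 RMA signal (y axis) of Slc27a1 and Slc27a4 on each array by daily dose (x axis, mg/kg; the same controls drawn at both zeros), fetal liver left and maternal liver right; points are arrays, lines the mean, bars 1 SD and the grey band the range of background limits. Maternal Slc27a1 reached 9.25 under GenX10, while all fetal values of both genes lay at or below 7.81.

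Acss3 (chromosome 10, 106933514 to 107123761) encodes a mitochondrial short-chain synthetase that favours propionate. Fetal PFOA1 arrays had 7.06, 6.46, 6.82, 6.67 and 6.93, against 5.36, 5.51, 5.44, 5.43 and 5.45 in fetal controls. No array of either group was above background, so no fold is given for the difference of 1.35 ± 0.16 (adjusted p = 7.9e-06). Fetal PFOA5 arrays ran from 6.85 over a median of 7.38 to 7.85, a difference of 1.98 ± 0.15 (adjusted p = 2.8e-09), with 4 of 6 not above background. Signals reached the measurable range under GenX. Fetal GenX2 arrays had 8.30, 8.28, 8.05, 7.56 and 8.36, a difference of 2.67 ± 0.16 (at least 1.16-fold, adjusted p = 4e-11). Fetal GenX10 arrays had 8.19, 8.30, 8.22 and 8.48, a difference of 2.86 ± 0.17 (at least 1.32-fold, adjusted p = 3.3e-11). All exposed fetal arrays lay above all controls.

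In maternal liver Acss3 was above background on every array. It was called under GenX10 (9.60, 8.85, 9.32, 9.29 and 9.05, against 8.27, 8.70, 8.51, 8.48 and 8.49 in controls) with a difference of 0.73 ± 0.15 (1.66-fold, adjusted p = 0.0023). Under GenX2 the difference of 0.57 ± 0.15 was called (1.49-fold, adjusted p = 0.038), a call lost in 10 of 17 alternative analyses. It was lost on leaving out any array of the 2 groups but GenX2 replicate 4 and control replicate 2, with adjusted p values up to 0.11. The PFOA1 and PFOA5 differences of 0.18 ± 0.15 and 0.23 ± 0.15 were not called (adjusted p = 1 and 0.3).

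Acss1 (chromosome 2, 150618111 to 150668240), the mitochondrial acetyl-CoA synthetase, was above background on every fetal array. No maternal array was (6.72 to 7.25), and no maternal difference was called. The difference between the fetal and the maternal change was not called under PFOA1, PFOA5, GenX2 or GenX10 (adjusted p = 1, 0.62, 0.075 and 0.36), though that of GenX2 was in 5 of 31 alternative analyses. Fetal GenX10 arrays had 9.04, 9.25, 9.27 and 9.20 and GenX2 arrays 8.92, 9.07, 8.93, 9.59 and 9.39, against 8.99, 8.72, 8.84, 8.53 and 8.73 in controls. These 2 differences were small, 0.42 ± 0.13 and 0.42 ± 0.12 (1.34-fold each, adjusted p = 0.037 each), and the calls were lost in 8 of 19 and 10 of 20 alternative analyses, that of GenX2 also without the arrays of conflicting labels. Both were lost without control replicate 2, 4 or 5, the GenX2 call without its replicate 4 or 5 and the GenX10 call without any 1 of its arrays (adjusted p up to 0.19 and 0.10). Under fetal PFOA1 and PFOA5 the differences were 0.15 ± 0.12 and 0.14 ± 0.12 and were not called.

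Acss2 (chromosome 2, 155518043 to 155562743), the acetyl-CoA synthetase of cytosol and nucleus, supplies acetyl-CoA for lipid synthesis. It was not above background on any fetal array, and fetal differences lay between -0.05 and 0.23 with none called. In maternal liver GenX10 arrays had 8.38, 8.48, 8.31, 8.17 and 8.45, against 7.50, 7.67, 7.37, 7.18 and 7.31 in controls. All were above the controls, by 0.95 ± 0.16 (adjusted p = 0.00016), but 4 of the 5 control arrays were not above background and no fold is given. Maternal GenX2 arrays had 8.82, 8.03, 7.82, 7.83 and 7.59 and differed by 0.61 ± 0.16 from the same controls (adjusted p = 0.027). Replicate 1 was the highest of these, and without it the difference was 0.41 and was not called. The call was also lost without GenX2 replicate 2 or control replicate 3, 4 or 5, with adjusted p values up to 0.15. Under maternal PFOA5 the difference of 0.41 ± 0.16 was not called (adjusted p = 0.069), though it was in 4 of 17 alternative analyses. Under PFOA1 it was 0.29 ± 0.16 and was not called.

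**Figure D4:**
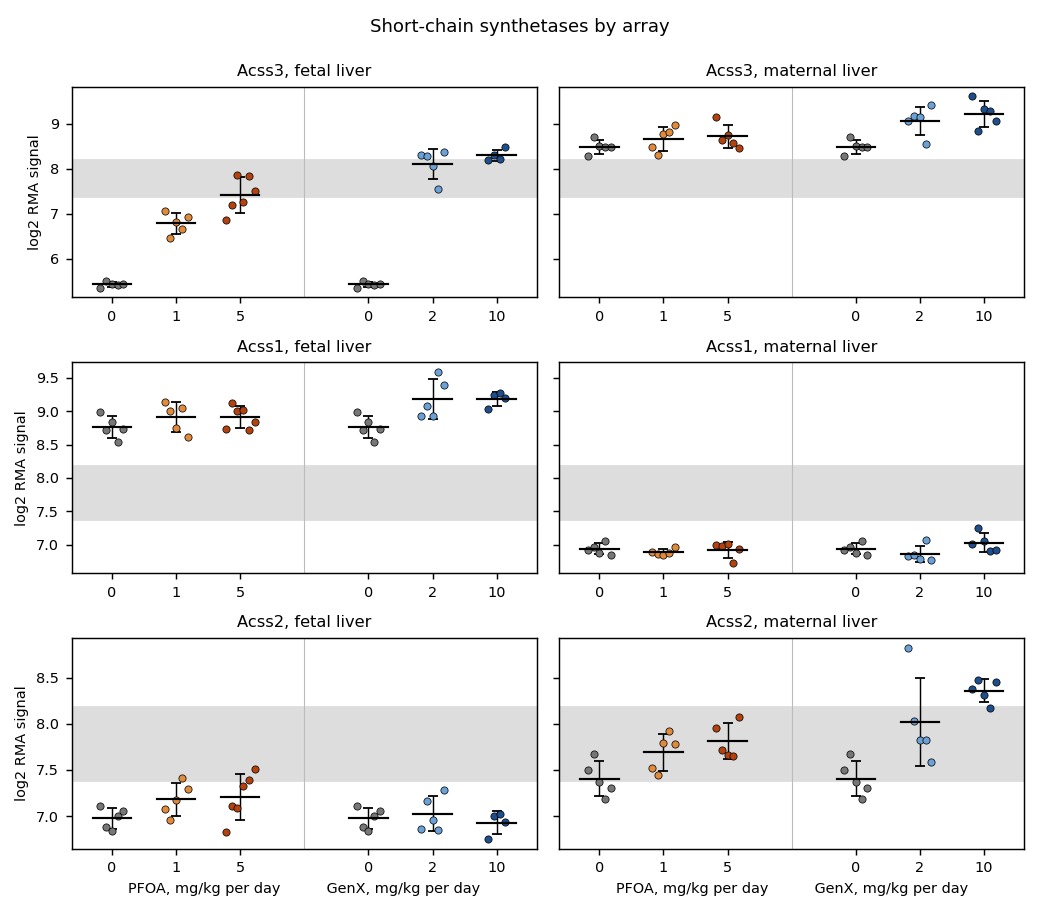
Log2 RMA signal (y axis) of Acss3, Acss1 and Acss2 on each array by daily dose (x axis, mg/kg; the same controls drawn at both zeros), fetal liver left and maternal liver right; points are arrays, lines the mean, bars 1 SD and the grey band the range of background limits. Fetal Acss3 averaged 7.42 under PFOA5, 8.30 under GenX10 and 5.44 in controls, while Acss1 stayed below the band on all maternal arrays.

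Within a compound, the doses were compared directly. Between maternal PFOA5 and PFOA1, 6 of 9 members were higher at the higher dose, where 18.7% of all features were called. Slc27a1 differed by 0.86 ± 0.15, Acsl4 by 0.75 ± 0.17, the Acsl3/Utp14b cluster by 0.65 ± 0.11, Slc27a4 by 0.62 ± 0.09, Slc27a2 by 0.56 ± 0.10 and Acsl5 by 0.42 ± 0.08. The Acsl5 call was lost with the mean of its probes (adjusted p = 0.10), of which the dimmer was below background on every array. Between maternal GenX10 and GenX2 no member was called (0.237% of all features were). By limma, 7 of 9 had an unadjusted p under 0.05, as did 2463 of all 30744 features. The widest of these differences were 0.66 ± 0.17 for Acsl4 (adjusted p = 0.13) and 0.62 ± 0.15 for Slc27a1 (adjusted p = 0.095). Leaving out GenX2 replicate 1 or GenX10 replicate 3 brought 2 members each past the threshold, Slc27a1 both times with Acss2 or Slc27a4.

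In fetal liver no member was called between doses by limma. Between PFOA5 and PFOA1, where 0.0488% of all features were called, 3 of 9 members had an unadjusted p under 0.05. So did 2624 of all 30744 features. Of the 3 members, Acss3 differed by 0.63 ± 0.15 (adjusted p = 0.22), and by enough to be called when PFOA5 replicate 1 was left out. Slc27a2 differed by 0.16 ± 0.10 there, with an interval from -0.05 to 0.36. Between fetal GenX10 and GenX2 no feature was called (0% of 30744, with 619 at an unadjusted p under 0.05), and no member had an unadjusted p under 0.05. For Slc27a2 that difference was 0.11 ± 0.11 with an interval from -0.11 to 0.34. The order of fetal Slc27a2 means was PFOA1, PFOA5, GenX2 and GenX10 from 11.37 to 11.65, with the ranges of neighbours overlapping. In the same order fetal Acss3 means were 6.79, 7.42, 8.11 and 8.30, also with overlapping neighbours.

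The controls of both tissues were compared to set the starting levels. Between fetal and maternal controls 62.2% of all features were called, and 8 of the 9 members were, 2 higher and 6 lower in fetal liver. The sources used here do not state if both tissues were normalized in 1 run, and the median over all features was -0.13. Acss1 was higher in fetal controls by 1.83 ± 0.10 (at least 2.22-fold, adjusted p = 4.6e-20). Acss3 was lower by 3.05 ± 0.16 on the log2 scale (fetal 5.44, maternal 8.49; at least 1.51-fold lower, adjusted p = 1.5e-20). Acsl5, Slc27a2 and Acsl4, which rose under exposure in both tissues, were lower in fetal controls: Acsl5 at 10.09 ± 0.25 against 11.02 ± 0.14, Slc27a2 at 10.16 ± 0.21 against 10.87 ± 0.09 and Acsl4 at 8.12 ± 0.25 against 8.86 ± 0.32 (mean ± SD, n = 5 each). The remaining calls were in probes mostly at or below background: Acss2 and Slc27a4 were lower by 0.43 and 0.37, and the Acsl3/Utp14b cluster higher by 0.30. Slc27a1 was not called (adjusted p = 0.19).

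The cell makeup of the tissues differed in the same contrast. All 5 measured erythroid markers were higher in fetal controls, and their mean signal was 9.42 to 9.77 there, against 6.70 to 6.82 in maternal controls, where 4 of the 5 were not above background. All 8 granulocyte markers were higher as well. The 7 measured hepatocyte markers averaged 12.48 to 12.62 in fetal and 12.69 to 12.80 in maternal controls. The part of these cells in the tissue differences of the members was not tested.

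Differences between the fetal and the maternal change were tested for each exposure. Acss3 changed more in fetal liver under all 4: by 1.17 ± 0.23 under PFOA1, 1.75 ± 0.23 under PFOA5, 2.10 ± 0.23 under GenX2 and 2.12 ± 0.24 under GenX10 (adjusted p = 0.0066, 7.3e-07, 7.5e-08 and 4e-08). For Acss3 no fetal control or fetal PFOA1 array and 2 of 6 fetal PFOA5 arrays were above background, where signals are compressed, whereas every maternal array was. Slc27a2 changed more in fetal liver under PFOA1, by 0.73 ± 0.14 (adjusted p = 0.0066). Its other differences, 0.33, 0.49 and 0.49, had adjusted p values of 0.21, 0.081 and 0.072 under PFOA5, GenX2 and GenX10. These differences passed the threshold in 1 of 32, 4 of 31 and 8 of 30 alternative analyses. For GenX10 these included the one without the 2 arrays against the labelled sex (0.55, adjusted p = 0.045), the one without fetal control replicate 3 alone and the one that followed the source names. The GenX10 difference also passed without maternal GenX10 replicate 1, fetal control replicate 2 or fetal GenX10 replicate 3, and the GenX2 difference without maternal GenX2 replicate 1 or fetal control replicate 2. Acsl4 was called under GenX2 alone (0.88 ± 0.23, adjusted p = 0.039), and that call was lost in 16 of 31 alternative analyses, including the one without the arrays of conflicting labels (adjusted p up to 0.12). Leaving out maternal control replicate 1, 2 or 3, maternal GenX2 replicate 1 or 4, fetal control replicate 4 or 5, or fetal GenX2 replicate 1, 2, 3 or 5 ended it. For Acsl5 and the Acsl3/Utp14b cluster no difference was called. A missed threshold does not show that the tissues changed alike: the Acsl5 intervals reached 0.79 under PFOA1 and 0.58 under PFOA5.

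Slc27a1 and Slc27a4 changed less in fetal than in maternal liver under PFOA5 and GenX10. Under GenX2 their differences of -0.51 ± 0.18 and -0.40 ± 0.17 were not called (adjusted p = 0.19 and 0.40). Those under PFOA1, 0.02 and -0.06, were not called either. The called differences for Slc27a1 were -0.78 ± 0.17 under PFOA5 and -1.08 ± 0.18 under GenX10 (adjusted p = 0.0029 and 0.00011). Those for Slc27a4 were -0.69 ± 0.17 and -0.65 ± 0.17 (adjusted p = 0.0072 and 0.032), the GenX10 call being lost in 10 of 30 alternative analyses (adjusted p up to 0.16). These left out maternal control replicate 3 or 5, maternal GenX10 replicate 1 or 5, fetal control replicate 4 or 5, or fetal GenX10 replicate 1, 2 or 4, or fitted only the groups compared. Acss2 changed less in fetal liver under GenX10 (-0.998 ± 0.204, adjusted p = 0.0022). All 3 genes were not above background on fetal arrays, where signals are compressed. In total 2, 3, 2 and 4 of the 9 members were called for PFOA1, PFOA5, GenX2 and GenX10, with 0.179%, 4.48%, 1.28% and 2.04% of all features called.

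**Figure D5:**
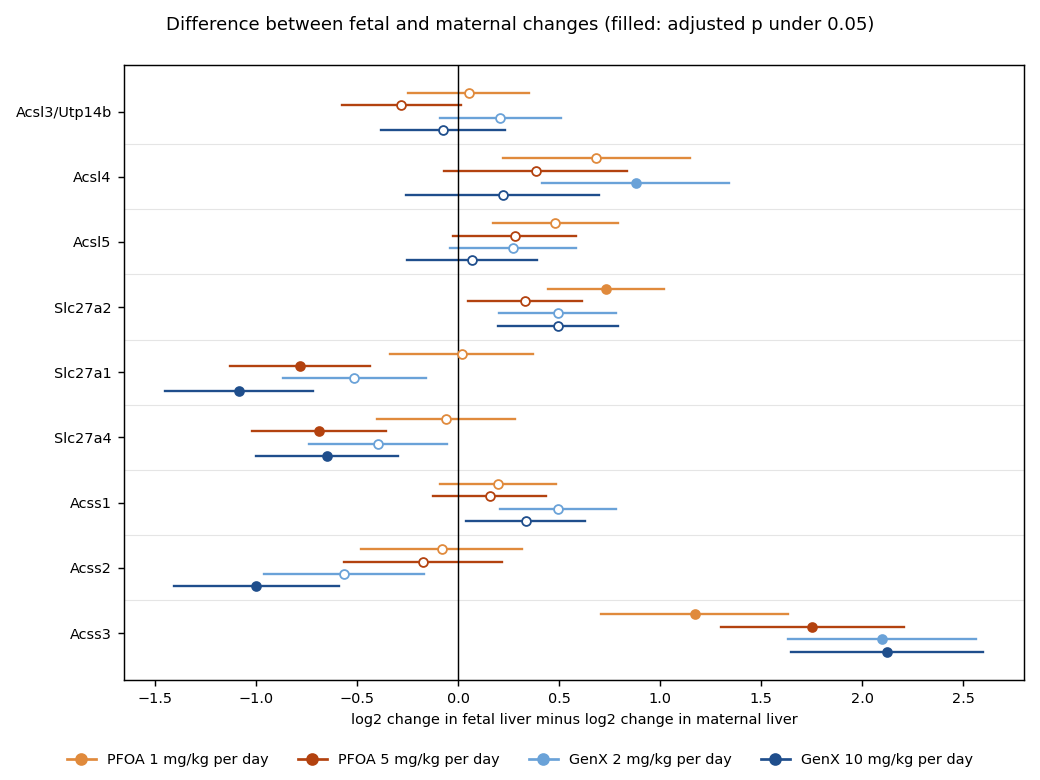
Log2 change in fetal liver minus log2 change in maternal liver for each member (x axis, log2 units; points are limma estimates, bars 95% confidence intervals, filled points adjusted p under 0.05; 1 row of points per exposure). Acss3 lies at 1.17 to 2.12 for all 4 exposures, and Slc27a1 at -0.78 and -1.08 for PFOA5 and GenX10. Fetal controls of both genes were not above background.

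Other cell types were followed in the exposed groups through their markers. In maternal liver 4 of 8 macrophage markers rose under PFOA5 and 2 of 8 under GenX10, where 19.9% and 13.8% of all features were called. Their mean signal was 6.997 to 7.99 under PFOA5 and 7.31 to 7.97 under GenX10, against 6.81 to 7.60 in controls. Of 5 adipocyte markers 1 rose in each of the same groups. For PFOA5 this is close to the share of all features called in either direction, while 10.8% of all features rose. The mean signal of the 5 was 5.71 to 5.87 under PFOA5 and 5.41 to 5.62 under GenX10. Controls had 5.27 to 5.45, with none of the 5 above background. The median difference of the 5 was 0.02 under PFOA5 (3 of 5 positive) and -0.02 under GenX10 (2 of 5 positive). Under GenX10, 1 of 4 cholangiocyte, 1 of 4 pancreatic acinar and 1 of 6 stellate or fibroblast markers rose. Under PFOA5, 1 of 6 endothelial and 1 of 6 stellate or fibroblast markers fell. Of 7 maternal hepatocyte markers, 1 rose and 1 fell under PFOA5, and 1 rose under GenX2 and 1 under GenX10. Under maternal GenX2, where 3.37% of all features were called, 1 of 8 granulocyte markers fell. Slc27a1, Slc27a2, Slc27a4, Acsl4, Acsl5 and the Acsl3/Utp14b cluster rose under both maternal PFOA5 and GenX10. In fetal liver 1, 3 and 2 of 7 hepatocyte markers fell under PFOA5, GenX2 and GenX10, with mean signals of 12.24 to 12.46, 11.95 to 12.43 and 12.30 to 12.43, against 12.48 to 12.62 in controls, where 3.4%, 6.74% and 9.28% of all features were called. In each of these groups 1 of 8 macrophage markers fell, with mean signals of 7.18 to 7.65, 7.34 to 7.78 and 7.09 to 7.52, against 7.43 to 7.66 in controls. No erythroid marker was called under fetal PFOA1, PFOA5 or GenX10, and 1 of 5 rose under GenX2. Of 6 fetal stellate or fibroblast markers, 1 rose under PFOA5, and 1 rose and 1 fell under GenX2. The part of these marker differences in the members' changes was not tested.

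Another 17 genes of the same enzyme and transport families were followed for comparison. In maternal liver 4 rose under PFOA5 and GenX2 and 5 under GenX10, and none fell, with 19.9%, 3.37% and 13.8% of all features called. The 4 of 17 under PFOA5 are close to the share of all features called in either direction. All 4 were rises, and 10.8% of all features rose there. The relatives that rose were led by Cd36, a fatty acid receptor of the cell surface, and Acsm3, a mitochondrial medium-chain synthetase. Cd36 differed from control by 1.81 ± 0.20 under PFOA5 (11.08 to 11.45, against 9.11 to 9.86 in controls), 1.37 ± 0.20 under GenX2 and 1.81 ± 0.20 under GenX10 (adjusted p = 6.6e-07, 0.00016 and 9.8e-07). The Acsm3 differences were 1.19 ± 0.17, 1.14 ± 0.17 and 1.37 ± 0.17, at least 1.80, 1.74 and 2.05 times control. Acsf2, another mitochondrial medium-chain synthetase, differed by 0.60, 0.66 and 0.79 (adjusted p = 0.00051, 0.00092 and 3e-05), Acsm5 was called in the same groups, and Aacs, the acetoacetyl-CoA synthetase, under GenX10 alone. Under maternal PFOA1 none of the 17 was called by limma. Between maternal PFOA5 and PFOA1, where 18.7% of all features were called, Cd36, Acsm3 and Acsf2 were higher, by 1.02, 0.84 and 0.45, and Acsm4, below background in both groups, was lower.

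In fetal liver 1, 1, 3 and 4 of these 17 were called under PFOA1, PFOA5, GenX2 and GenX10, with 0.956%, 3.4%, 6.74% and 9.28% of all features called. Cd36 rose under GenX2 by 0.63 ± 0.16 and under GenX10 by 0.93 ± 0.17 (adjusted p = 0.014 and 0.00064). Slc27a5 (FATP5, which also activates bile acids) fell there by 0.91 and by 1.03 (adjusted p = 0.00019 and 7.8e-05), from a level already not above background in controls. Acsm3 rose under PFOA1 by 0.63 ± 0.15 (adjusted p = 0.039), Acsm5 fell by 0.23 to 0.30 under the other exposures, and Aasdh rose by 0.14 under GenX10, both below background. In fetal against maternal controls 13 of the 17 were lower and none higher, where 62.2% of all features were called. None of Acsf2, Acsm5 and Slc27a5 was above background on any fetal control array. Acsf2 was at least 3.25-fold and Slc27a5 at least 2.52-fold lower there, and for Acsm5 (5.26 in fetal and 7.56 in maternal controls) no fold is given. For the difference between the fetal and maternal changes, 3, 3 and 4 of 17 were called for PFOA5, GenX2 and GenX10, all negative, with 4.48%, 1.28% and 2.04% of all features called, and none for PFOA1, with 0.179%. Cd36 was called for PFOA5 (-1.35 ± 0.26), Slc27a5 for GenX2 (-1.25 ± 0.21) and for GenX10 (-0.98 ± 0.21).

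Arrays were also used to describe which members varied together. Over the 25 maternal arrays, Pearson's r was 0.94 for Acsl5 with Slc27a2 and 0.93 for Acsl5 with the Acsl3/Utp14b cluster, while Acss1, below background there, was between 0.01 and 0.25 with every other member. Over the 25 fetal arrays r was 0.93 for the Acsl3/Utp14b cluster with Acss3, 0.92 for Acsl4 with Slc27a2 and 0.90 for Acss3 with Slc27a2. Fetal Slc27a4, not above background on any fetal array, ranged from -0.38 to 0.48. All these points share the 5 dose groups, so r includes the differences between groups.

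Among 5386 maternal and 4532 fetal genes above background on at least 5 arrays, the most similar patterns were named by the same coefficient. That filter was not applied to the members themselves. Maternal Slc27a2 was closest to Aldh3a2 (fatty aldehyde dehydrogenase, r = 0.99), Scp2 (a peroxisomal sterol carrier and thiolase, 0.98) and Vwa8 (0.98), and fetal Slc27a2 to Vwa8, Hsd17b4 (a peroxisomal oxidation enzyme) and Aldh3a2 (0.99 each). Acsl5 was closest to Hsd17b7, Hsd17b12 and Hadhb in maternal liver (0.96, 0.96 and 0.95) and to Cyp4f15, Me1 and Adipor2 in fetal liver (0.96 each). Acss2 was closest to Vegfb (0.90), Fasn (fatty acid synthase, 0.90) and Pmvk (a sterol synthesis kinase, 0.88) in maternal liver. In fetal liver, where Acss2 was not above background on any array, it was closest to Aacs (0.85), Pmvk (0.80) and Fasn (0.80). Maternal Slc27a1 was closest to Cpt1b (a carnitine palmitoyltransferase, 0.94), Fitm2 and Secisbp2l (0.93 each). Fetal Acss3 was closest to Kdsr (0.98), Dhrs4 (0.95) and Dbi (acyl-CoA binding protein, 0.95). The Acsl3/Utp14b cluster was closest to Hsd17b7 (0.94), Abcd3 and Hadha (0.93 each) in maternal liver. In fetal liver it was closest to Aldh9a1 (0.95), Krt18 and Slc25a4 (0.94 each). Fetal Slc27a1 was closest to Slc38a3 (0.86), Plin5 and Cyp4f13 (0.84 each), with no fetal array above background. The same limit holds for fetal Slc27a4, closest to Plcb3 and Meltf (0.93 each) and Guca2b (0.91). Maternal Slc27a4 was closest to Slc48a1 (0.96), Mdh2 (0.95) and Ftl1 (0.94). Fetal Acsl4 was closest to Crot (a peroxisomal carnitine transferase, 0.95), Cr1l (0.95) and Aldh3a2 (0.94), and maternal Acsl4 to Arfgef1 (0.91), Kidins220 and Ybx1 (0.90 each). For maternal Acss3 these were Tfpi2 (0.90), Sacm1l and Rtn4ip1 (0.87 each). Maternal Acss1, below background, was closest to Msra (0.63), Klf10 (0.60) and Dusp8 (0.59). For fetal Acss1 they were Rnf10 and Fkbp4 (0.82 each) and Slc6a9 (0.81). These coefficients are descriptions over 5 dose groups with shared controls.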

How the data were processed

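The authors deposited log2 signals made with RMA, with the mouse build mm10, per the submitters' processing notes. Versions are not given in the sources used here, nor is it stated if all 50 arrays were processed in 1 run. RMA normalizes by quantiles, so a shift of most genes is partly removed. Separately, signals near background are compressed. Per-array medians lay between 5.15 and 5.34. The number of arrays limits the precision.

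Probes were named from the platform annotation. Of 32750 annotated probes, 30604 had 1 symbol and 612 several symbols of 1 gene; 1534 named several genes and were left out, except that of Acsl3. The brightest probe was kept for 364 genes with several, which left 30744 features. Groups followed the titles. The members and gene lists, and thus the tests, were chosen with earlier results of these data known.

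Linear models were fitted to the deposited values with limma 3.58.1 in R 4.3.3 (lmFit, eBayes; two-sided; Benjamini-Hochberg). There was 1 fit of 5 groups per tissue and 1 of 10 groups between tissues, giving 17 comparisons, and intervals are 95% confidence intervals. The procedure was tested on simulated data. Every member was named, and of the 17 related genes up to 3 called ones per comparison with the smallest adjusted p, while Acsm5, Aacs, Aasdh and Acsm4, where past that number, and Ehhadh, Xist and Eif2s3y were chosen after their values were seen. For likeness, the 3 named genes with the highest r were taken. The labels name no pairs, and arrays were not paired by replicate number. Same-numbered arrays of different groups had a mean correlation of deviations of -0.02 (maternal) and 0.02 (fetal), and dam and fetus -0.06. Such means over all genes cannot show whether a dam and a fetus of 1 number belong together. Promoter windows were searched in Python 3.11.15 with pandas 2.3.3, and figures drawn with matplotlib 3.10.9. The alternatives tried were an intensity trend in the variance moderation, leaving out dim genes, median centring, probe means, array weights, the samples in the fit, blocks, doubtful arrays and leaving out each array.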

Additional observations from a re-analysis of the deposited data

Results flagged for a closer look

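Of 90 combinations of a member and a group examined for 1 array far from the rest of its group, 6 held such an array, and chance gives about 1 in 20. In maternal controls the Acsl3/Utp14b cluster was 7.51 on replicate 2, with the other arrays between 7.29 and 7.35. Maternal GenX2 replicate 4 had Acsl5 at 11.22, below the 11.57 to 11.68 of the others, and Acss1 at 7.06, above their 6.77 to 6.84. Acss1 was 6.72 on maternal PFOA5 replicate 4 (others 6.93 to 7.003), but no maternal array was above background for that gene. Slc27a4 was 8.12 on maternal PFOA5 replicate 3 (others 8.41 to 8.49) and 7.70 on fetal PFOA1 replicate 5 (others 7.17 to 7.30), where no array was above background.

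The change differed between fetal and maternal liver, by limma's test of that difference, for 11 results. For Acss3 the fetal change exceeded the maternal one by 1.17 under PFOA1, 1.75 under PFOA5, 2.10 under GenX2 and 2.12 under GenX10, with fetal controls not above background. Slc27a2 had an excess of 0.73 under PFOA1, and Acsl4 of 0.88 under GenX2. The difference was negative for Slc27a1 (-0.78 under PFOA5 and -1.08 under GenX10), for Slc27a4 (-0.69 and -0.65) and for Acss2 under GenX10 (-0.998).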

How the results depend on the processing

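No member changed direction in a call under any alternative analysis run, and 56 of the 67 member calls were kept in all of them. The count of members called against control was 1 in place of 0 for maternal PFOA1 with dim genes left out, with array weights, or without replicate 1 (0 to 1 over all arrays left out in turn), Slc27a2 in each case. It was 3 to 6, with 6 in the main analysis, for maternal GenX2, the 3 coming without GenX2 replicate 1. Between maternal GenX10 and GenX2 the count of 0 became 1 with dim genes left out or with array weights, and 0 to 2 with 1 array left out (2 without GenX2 replicate 1 or GenX10 replicate 3, 1 without GenX2 replicate 5). Between fetal PFOA5 and PFOA1 it became 1 with array weights and 0 to 1 with an array left out (1 without PFOA5 replicate 1). For the difference between fetal and maternal changes, the count of 2 under PFOA1 became 1 with only the groups compared in the fit. Under GenX2 the count of 2 became 4 with dim genes left out, and 1 with median centring, with only the groups compared, with dam and fetus of a number as a replicate block by litter, or without the arrays of conflicting labels. With 1 array left out it was 1 to 3, and 1 without maternal control replicate 1, 2 or 3, fetal control replicate 4 or 5, or fetal GenX2 replicate 2 or 5. The cause was not tested.

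With the replicate number as a block (replicate block), which marks no known pair, the counts were 5 for maternal GenX2, fetal GenX2 and fetal GenX10 in place of 6, and the main count in the other 14 comparisons. Probes near the background limit, among them every maternal Acss1 signal and every fetal Acss2, Slc27a1 and Slc27a4 signal, can hide a change, and 4 to 6 arrays a group bound the precision.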
